A study of Mus musculus with 12 samples.

Results

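The genes of collagen chains, laminin chains and basement membrane proteins were examined in endothelial cells of the neonatal mouse lung. Rows were taken whose symbol names a collagen or a laminin chain, and the nidogens Nid1 and Nid2, the perlecan gene Hspg2, Sparc, Sparcl1, Fn1, Bgn, Dcn, Tnc, Eln, Lox, Loxl1, Loxl2, Tgfbi, Serpinh1 and Adamts1 were added by name. 71 rows had such a name, and 54 of them, the members described here, had a value above 0 in at least 4 of the 12 libraries. They are 54 of the 24394 genes listed in all 12 tables. This rule used no difference between groups, but members and lists were chosen with earlier results of these data known.

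FACS was used to sort endothelial cells from the lungs of C57BL/6J pups, aged 5 days, and RNA was measured in 3 groups of 4 libraries. L12YT-ECKO libraries, labelled LATS1/2;YAPTAZ-ECKO, came from mice with the VE-cadherin-CreERT2 transgene and floxed Lats1f/f, Lats2 f/f, Yapf/f and TAZf/f alleles. L12-ECKO libraries, labelled LATS1/2-ECKO, came from mice with VE-cadherin-CreERT2 and the Lats1f/f and Lats2 f/f alleles alone, and WT libraries from animals labelled wild type. CreERT2 is a recombinase that acts after an inducer is given, and the VE-cadherin promoter directs it to endothelial cells, so a deletion would be expected in those cells only and need not be complete. The labels give neither the inducer nor whether WT animals received it or carried the transgene. Whether separate animals stand behind the 4 replicates is also not stated, so a p-value here reflects only how much these libraries vary, which may in part be technical. Judged by sex-linked transcripts, each group held libraries of both sexes, but the number of animals is not known.

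A basement membrane is the thin sheet of matrix under endothelial cells. It is built from a network of type IV collagen and a network of laminin, which nidogens and perlecan join, and endothelial cells make most of these proteins themselves. Fibrillar collagens form the fibres of the surrounding tissue and are mainly products of fibroblasts and smooth muscle cells. LATS1 and LATS2 are kinases of the Hippo pathway that hold back the transcriptional coactivators YAP and TAZ, which act on DNA through TEAD factors.

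Each value is the log2 expression deposited by the authors. The 5000 highest values of a library have nearly the same distribution in every library, and the read depth is unknown. The low end differs between libraries. The lowest value above 0 was 4.98 in L12-ECKO replicate 3, 3.01 to 3.16 in WT and 0.067 to 2.77 in the others. A 0 in L12-ECKO replicate 3 can thus stand where another library lists a low value. The libraries were made from the 3′ ends of transcripts, 1 stretch per transcript, so a level does not scale with transcript length. In bulk RNA, fewer cells of a type and less RNA per cell cannot be told apart. The 3′ tags do not report on floxed exons unless these lie at the tag, and the labels do not give the deleted parts. Yap1 read 7.96, 8.01, 6.69 and 8.20 in L12YT-ECKO, 10.37, 9.71, 10.45 and 9.35 in L12-ECKO and 9.88, 10.02, 9.81 and 9.46 in WT. Wwtr1, which encodes TAZ, averaged 8.81 ± 0.51 in L12YT-ECKO, 11.18 ± 0.71 in L12-ECKO and 11.81 ± 0.19 in WT (SD, n = 4 each). Both were lower in every L12YT-ECKO library than in any other library. Lats2 read 8.63 to 9.57 in L12YT-ECKO, 9.71 to 10.33 in L12-ECKO and 8.42 to 9.34 in WT, and Lats1 was at 0 in L12YT-ECKO replicate 2 and L12-ECKO replicate 3, so these tags do not check the Lats deletions.

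5 libraries, L12YT-ECKO replicates 3 and 4 and L12-ECKO replicates 2, 3 and 4, stand apart: in their tables a block of 32 rows that holds no member is displaced by 1 row. No WT library is among them, so a comparison with WT among the other 7 libraries has 1 L12-ECKO library, which is assumed to vary like the other groups. The summed level of 10 liver markers was 9.91 to 12.07 in the 5 libraries and 8.05 to 9.86 in the other 7. Libraries had 9836 to 13060 genes above 0, with the fewest in L12-ECKO replicate 3, which also had the fewest members above 0, 37 of 54 against 40 to 50 in the others. L12-ECKO replicate 1 alone of its group has no displaced rows, and its S100a8 value, a neutrophil gene, was 15.20 against at most 10.07 elsewhere. All 10 endothelial markers examined were above 0 in every library, with Pecam1 at 14.50 to 15.20. The summed level of 12 mesenchymal markers was 8.72 to 10.19 in L12YT-ECKO, 8.01 to 9.51 in L12-ECKO and 9.58 to 10.69 in WT. Of these markers Pdgfra was at 0 in 5 of the 12 libraries and Tcf21 in 7. Acta2 read 5.21 to 9.37, Tagln 3.08 to 7.98, Myh11 3.34 to 8.71 and Des 1.63 to 8.17, above 0 in all 12. The other listed mesenchymal markers were each at 0 in some library. The mesothelial genes Wt1 and Upk3b were at 0 in all, while Msln reached 6.16 and Lrrn4 4.55.

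45 of the 54 members were expressed highly enough to be tested, and the other 9 had values in too few libraries. limma was fitted over 11634 genes, and a gene was called where its Benjamini-Hochberg adjusted p over all of them was under 0.05. 1 tested member, Bgn, rose in L12-ECKO against WT, where 0.481% of all genes were called. No member was called in L12YT-ECKO against WT, where 0.0086% of all genes were called, or in L12YT-ECKO against L12-ECKO, where 0.0688% were called. L12-ECKO and L12YT-ECKO are both set against the same WT libraries, so those comparisons are not independent of each other.

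The 14 genes placed in the endothelial basement membrane class had the highest mean level and the smallest spread of the 7 classes of members. All 14 were above 0 in all 12 libraries, and their median spread within groups was 0.50 (residual SD, log2). The class mean was 10.78 ± 0.17 in L12YT-ECKO, 10.66 ± 0.43 in L12-ECKO and 10.70 ± 0.14 in WT (SD, n = 4 each). The mean over the 7 tested fibrillar collagens was 6.89 ± 0.48 in L12YT-ECKO, 6.38 ± 0.67 in L12-ECKO and 7.05 ± 0.71 in WT. These fibrillar means count listed zeros of Col11a1 and Col27a1, which may be genes that were not sampled. Col27a1 was at 0 in 3 L12-ECKO libraries and 1 WT library, so no order of the groups is read from these means. In each of the 12 libraries the basement membrane mean exceeded the fibrillar mean, by 2.79 to 5.40 on the log2 scale. Where a library holds such zeros, they lower its fibrillar mean and widen this gap.

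Sparc, a secreted protein that binds collagen IV, was the highest member and ranked 4 to 8 among all genes of a library. It read 16.18, 16.02, 16.02 and 16.02 in L12YT-ECKO, 15.88, 15.88, 15.74 and 15.56 in L12-ECKO and 16.18, 15.88, 16.02 and 15.88 in WT. All L12YT-ECKO values lay above all L12-ECKO values, but the gap of 0.29 (SE 0.14) was not called (limma adjusted p = 0.811). Since libraries share nearly the same distribution at their highest ranks, a value this high follows the rank of the gene. The gap and the small spread of Sparc thus reflect shifts within ranks 4 to 8. L12YT-ECKO overlapped WT, and the highest L12-ECKO values equalled the lowest WT values. Its relative Sparcl1, an anti-adhesive matrix protein, read 10.48 to 11.60 in L12YT-ECKO, 10.12 to 12.29 in L12-ECKO and 11.35 to 11.58 in WT.

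Col4a1 and Col4a2 encode the collagen IV chains found in nearly all basement membranes. The genes lie head to head on chromosome 8 and share a promoter region, shown here because these were the collagen genes with the highest levels and because their values can be read as a pair. The stretch is chr8:11312777-11312854 on the plus strand of GRCm38.p6, from RefSeq, and covers the bases that the promoter windows of both genes share, with capitals for the 22 bases from the annotated start of Col4a2 to that of Col4a1.
Col4a1 and Col4a2: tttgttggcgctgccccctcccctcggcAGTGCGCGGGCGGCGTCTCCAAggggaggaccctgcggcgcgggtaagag
The capitals include 1 GC box (GGGCGG), the letters bound by Sp-family factors.

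Col4a1 read 13.86, 13.83, 13.86 and 14.13 in L12YT-ECKO, 14.69, 13.80, 14.01 and 13.61 in L12-ECKO and 14.17, 14.21, 14.15 and 13.68 in WT. Col4a2 read 12.96, 12.46, 12.34 and 12.82 in L12YT-ECKO, 13.40, 11.96, 12.61 and 11.91 in L12-ECKO and 13.02, 12.99, 12.92 and 12.94 in WT. For both genes L12-ECKO replicate 1 was the highest of all libraries and the groups overlapped. The chain encoded by Col4a1 was the higher transcript in all 12 libraries, by 1.27 ± 0.26 in L12YT-ECKO, 1.56 ± 0.26 in L12-ECKO and 1.08 ± 0.23 in WT (log2 difference within a library, SD, n = 4 each). Neither gene was called: the difference of L12-ECKO from WT was -0.02 (SE 0.22, limma adjusted p = 0.982) for Col4a1 and -0.50 (SE 0.28, adjusted p = 0.482) for Col4a2. The 95% intervals of those differences were -0.48 to 0.44 and -1.08 to 0.09. Among libraries without displaced rows, where L12-ECKO replicate 1 alone stands for its group, the differences turned to 0.64 for Col4a1 and 0.44 for Col4a2, and with the displaced rows as a term they were 0.20 and -0.04.

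The laminins of endothelium combine the alpha chains of Lama4 or Lama5 with beta and gamma chains, chiefly those of Lamb1 and Lamc1. Lama4 read 9.11, 9.25, 10.39 and 9.81 in L12YT-ECKO, 10.78, 10.44, 9.75 and 10.43 in L12-ECKO and 9.57, 9.83, 9.13 and 9.0 in WT. L12-ECKO values lay mostly above WT values, with an overlap at L12-ECKO replicate 3 and WT replicate 2, and the difference of 0.96 (SE 0.36) was not called (limma adjusted p = 0.282). Among the 7 libraries without displaced rows it was 1.39 (adjusted p = 0.605). Lama5 read 8.55 to 9.15 in L12YT-ECKO, 7.5 to 9.60 in L12-ECKO and 5.98 to 8.94 in WT, and was 0.97 (SE 0.60) above WT in L12-ECKO and 0.93 (SE 0.60) above WT in L12YT-ECKO, with adjusted p of 0.525 and 0.828. Both sizes rested on WT replicate 2, the library at 5.98: without it they were 0.31 in L12-ECKO and 0.28 in L12YT-ECKO. Lama4 exceeded Lama5 in all 12 libraries, by 0.77 ± 0.56 in L12YT-ECKO, 1.44 ± 0.54 in L12-ECKO and 1.44 ± 1.75 in WT. Lamb1 exceeded Lamb2 in 4 of 4 L12YT-ECKO, 3 of 4 L12-ECKO and 1 of 4 WT libraries; that count was not tested.

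The linker proteins were led by perlecan. Hspg2, the heparan sulfate proteoglycan perlecan, read 11.85, 12.001, 12.39 and 11.74 in L12YT-ECKO, 13.09, 12.07, 12.09 and 11.46 in L12-ECKO and 11.20, 11.30, 11.62 and 12.05 in WT. Its groups overlapped, and it was 0.64 (SE 0.31) higher in L12-ECKO than in WT without being called (limma adjusted p = 0.414). The size rested on 1 library: without L12-ECKO replicate 1 it was 0.33 (adjusted p = 0.668), and among libraries without displaced rows, where that is the only L12-ECKO library, it was 1.55 (adjusted p = 0.139). Nid1 exceeded Nid2 in all 12 libraries, by 2.43 ± 0.39 in L12YT-ECKO, 2.76 ± 0.80 in L12-ECKO and 3.04 ± 0.54 in WT.

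Col15a1 and Col18a1 encode the multiplexin collagens, which carry heparan or chondroitin sulfate chains and sit at the outer face of vascular basement membranes, and Col18a1 is the source of the fragment endostatin. Col15a1 read 9.41, 9.67, 9.78 and 8.82 in L12YT-ECKO, 7.66, 8.73, 6.56 and 9.56 in L12-ECKO and 10.28, 9.16, 9.19 and 9.47 in WT. Col18a1 read 10.58, 9.41, 11.37 and 10.21 in L12YT-ECKO, 9.83, 9.10, 8.25 and 8.66 in L12-ECKO and 9.52, 9.54, 10.38 and 10.41 in WT. Both had their lowest values in L12-ECKO, yet 1 library kept the groups overlapping, L12-ECKO replicate 4 for Col15a1 and replicate 1 for Col18a1. In L12-ECKO against WT the differences were -1.40 (SE 0.53, limma adjusted p = 0.279) for Col15a1 and -1.0 (SE 0.43, adjusted p = 0.359) for Col18a1. In L12YT-ECKO against L12-ECKO they were 1.29 (SE 0.53, adjusted p = 0.719) for Col15a1 and 1.43 (SE 0.43, adjusted p = 0.511) for Col18a1. The difference of Col15a1 from WT was -1.86 among libraries without displaced rows, while that of Col18a1 was -0.13 there. The difference of Col18a1 in L12YT-ECKO against L12-ECKO was likewise uneven, at 2.13 among libraries with displaced rows and 0.16 among those without.

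**Figure D1:**
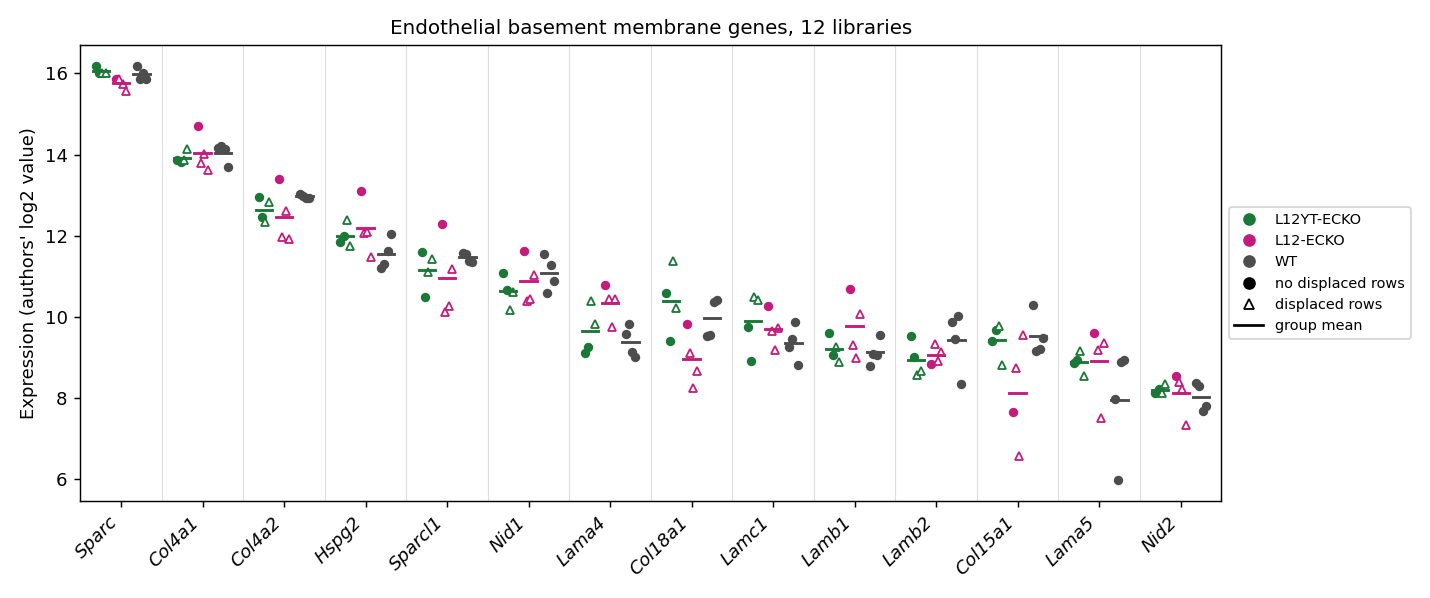
Authors' log2 expression (vertical axis) of the 14 endothelial basement membrane genes (horizontal axis, by falling mean) in L12YT-ECKO, L12-ECKO and WT, 1 symbol per library; triangles are libraries with displaced rows and bars are group means. Sparc sits near 16 in every library, and the filled L12-ECKO symbol, replicate 1, is the top value for 9 of the 14 genes.

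L12-ECKO replicate 1 had the highest value of all 12 libraries for 9 of the 14 basement membrane genes, and of the 4 L12-ECKO libraries for 12 of them. Its part in the differences above was not tested beyond leaving it out. The median difference over the 14 genes was -0.11 in L12-ECKO against WT, beside -0.02 over all genes tested, and -0.25 without that library. Among the 7 libraries without displaced rows, where it is the only L12-ECKO library, the median was 0.60, and it was 0.16 with the displaced rows as a term and 0.17 with sex as a term. In L12YT-ECKO against WT the median over the 14 genes was 0.08, the same to 2 decimals as over all genes, and in L12YT-ECKO against L12-ECKO it was 0.02, beside 0.09 over all genes. 6 of the 14 lay above 0 in L12-ECKO against WT, 8 in L12YT-ECKO against WT and 7 in L12YT-ECKO against L12-ECKO. None was called.

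8 fibrillar collagen genes were members and 7 were tested, since Col5a3 read 6.90 in L12YT-ECKO replicate 1 and at most 2.39 elsewhere. Their median spread within groups was 0.84, wider than that of the basement membrane class, and 5 of the 7 were above 0 in all libraries. Col5a2, a chain of the collagen V that starts fibril assembly, read 9.85, 9.68, 9.68 and 9.83 in L12YT-ECKO, 8.67, 9.34, 10.19 and 9.08 in L12-ECKO and 9.68, 9.62, 9.59 and 8.71 in WT. Its partner chain Col5a1 read 7.97, 8.29, 8.63 and 8.32 in L12YT-ECKO, 8.12, 9.38, 9.71 and 8.36 in L12-ECKO and 7.48, 9.33, 8.49 and 8.52 in WT. For both chains the highest value was in L12-ECKO replicate 3 and the groups overlapped.

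Col1a1 and Col1a2 encode the chains of collagen I, the main fibre of connective tissue. Col1a1 read 8.79, 8.88, 5.65 and 5.90 in L12YT-ECKO, 8.21, 6.22, 7.76 and 5.68 in L12-ECKO and 8.34, 8.77, 8.60 and 8.73 in WT. Every L12-ECKO value lay below every WT value, but the difference of -1.64 (SE 0.77) was not called (limma adjusted p = 0.404). At a fixed group, Col1a1 was 2.46 lower in libraries with displaced rows than in those without (SE 0.62, unadjusted p = 0.000969, adjusted p = 0.373). With the displaced rows as a term in the fit, the difference of L12-ECKO from WT turned to 0.20 (adjusted p = 0.975), and among libraries without displaced rows it was -0.40 (adjusted p = 0.973). The summed mesenchymal markers given above were likewise lower in L12-ECKO than in WT, with ranges that did not overlap, and were lower in the L12YT-ECKO libraries with displaced rows than in those without, and their part in the Col1a1 values was not tested. Col1a2 did not share the pattern to that degree, with 8.95, 8.82, 6.84 and 7.82 in L12YT-ECKO, 8.03, 8.03, 8.78 and 8.01 in L12-ECKO and 8.48, 8.73, 9.42 and 7.06 in WT.

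Col3a1, the chain of collagen III, read 6.96 to 8.16 in L12YT-ECKO, 7.08 to 8.61 in L12-ECKO and 7.35 to 8.52 in WT, 3 overlapping ranges. Col27a1, a fibrillar collagen best known from cartilage, was low: it read 5.83, 3.22, 3.56 and 5.78 in L12YT-ECKO, was at 0 in L12-ECKO replicates 1 to 3 with 2.34 in replicate 4, and read 7.33, 0, 6.28 and 6.50 in WT. All L12YT-ECKO values lay above all L12-ECKO values, and no comparison was called (adjusted p = 0.779 in L12YT-ECKO against L12-ECKO and 0.297 in L12-ECKO against WT). A listed 0 in these files may be a gene that was not sampled, so no fold is given. L12-ECKO replicate 3 held no value between 0 and 4.98 for any gene, a floor above the L12YT-ECKO values 3.22 and 3.56. The median difference of the 7 tested fibrillar collagens was -0.13 in L12-ECKO against WT, -0.28 in L12YT-ECKO against WT and -0.10 in L12YT-ECKO against L12-ECKO. 5, 5 and 4 of the 7 lay below 0 in those comparisons. All 3 medians turned sign under some setting. That of L12-ECKO against WT was 0.15 with sex as a term and 0.27 with displaced rows and the replicate number as terms. That of L12YT-ECKO against WT was 0.23 among libraries without displaced rows and 0.05 with both terms. The median of L12YT-ECKO against L12-ECKO was 0.60 without L12-ECKO replicate 3, 0.42 without L12YT-ECKO replicate 4, 0.86 among libraries without displaced rows and -0.67 among those with them.

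**Figure D2:**
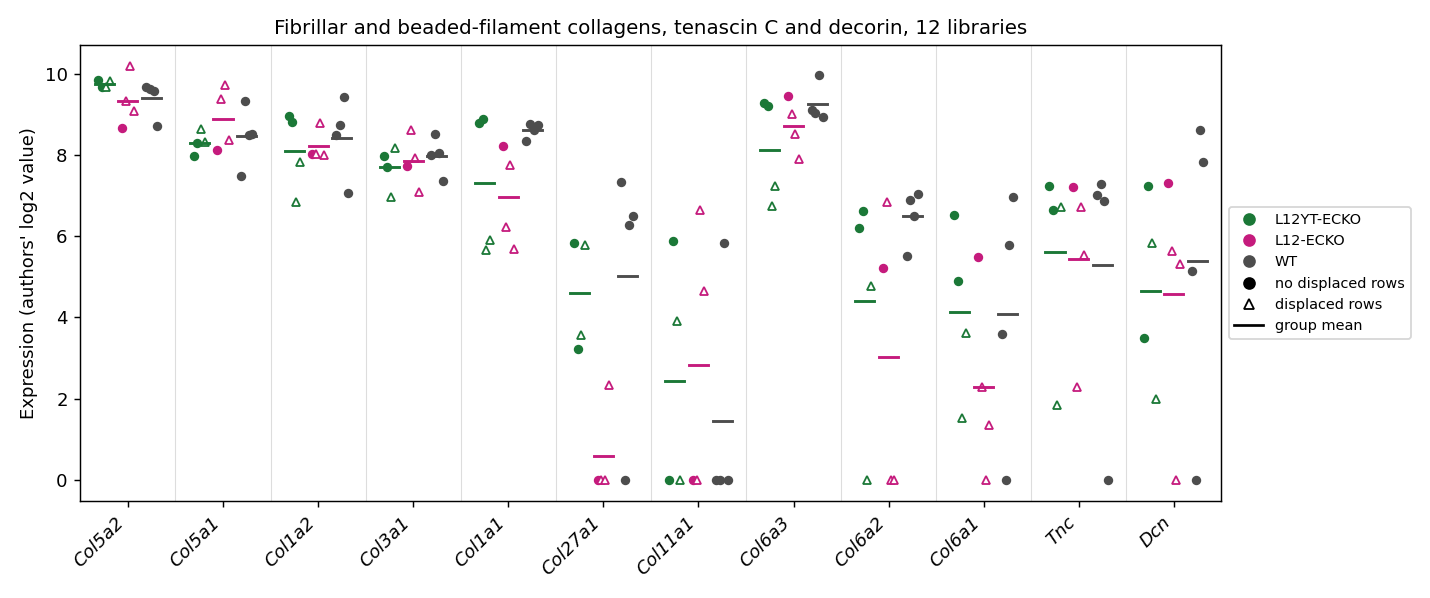
Authors' log2 expression (vertical axis) of the 7 tested fibrillar collagens, the 3 collagen VI chains, Tnc and Dcn (horizontal axis) in L12YT-ECKO, L12-ECKO and WT, 1 symbol per library; triangles are libraries with displaced rows and bars are group means. For Col1a1 and Col6a3 the L12YT-ECKO triangles lie below the L12YT-ECKO circles. The lower collagen VI chains, Tnc and Dcn reach 0 in 1 or more libraries. Col11a1 is at 0 in 2 L12YT-ECKO, 2 L12-ECKO and 3 WT libraries, and Col27a1 in 3 L12-ECKO libraries and 1 WT library.

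Bgn, on the X chromosome, encodes biglycan, a small leucine-rich proteoglycan that binds collagen fibrils and growth factors of the TGF-β family. It was the tested member with the smallest p in both comparisons that hold L12-ECKO. The 250 bases before its annotated start, chrX:73483351-73483600 on the plus strand of GRCm38.p6, are shown from RefSeq because it is the gene that changed, with the 3 GC boxes (GGGCGG or its complement, 2 of them overlapping) in capitals.
Bgn: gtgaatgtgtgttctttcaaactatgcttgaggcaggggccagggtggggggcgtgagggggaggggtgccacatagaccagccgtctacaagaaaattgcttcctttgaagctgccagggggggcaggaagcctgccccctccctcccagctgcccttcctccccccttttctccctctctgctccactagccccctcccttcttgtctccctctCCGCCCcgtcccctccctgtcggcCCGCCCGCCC
The letters GGAATG, the core bound by TEAD factors, and TGANTCA, the AP-1 site, were in neither strand of this window or of the 2 collagen IV windows.

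Bgn read 11.72, 10.49, 11.63 and 10.85 in L12YT-ECKO, 12.44, 12.34, 12.47 and 12.92 in L12-ECKO and 11.02, 11.26, 11.15 and 11.05 in WT. The L12-ECKO values lay above all others, while L12YT-ECKO values lay on both sides of the WT values. Bgn rose by 1.42 on the log2 scale in L12-ECKO against WT (SE 0.28, limma adjusted p = 0.0285, 95% interval 0.84 to 2.01), a ratio of 2.68. In L12YT-ECKO against L12-ECKO the difference was -1.37 (SE 0.28, adjusted p = 0.0906), with no overlap of the groups, and in L12YT-ECKO against WT it was 0.05 (SE 0.28, adjusted p = 0.987).

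The size of the difference of Bgn between L12-ECKO and WT held while its call did not. It was 1.32 with the displaced rows as a term (adjusted p = 0.247) and 1.32 among the libraries without displaced rows (adjusted p = 0.42), and 1.23 to 1.44 over all alternatives kept on the log2 scale. Judged by Xist and a Y-linked gene, 1 of 4 L12YT-ECKO, 3 of 4 L12-ECKO and 1 of 4 WT libraries were from females, and with sex as a term the difference of this X-linked gene was 1.31 (adjusted p = 0.122). It was called in 6 of 14 alternatives and in 5 of 12 fits that leave out 1 library. The call was lost when any 1 of the 4 L12-ECKO libraries or WT replicate 1, 2 or 4 was left out, where the difference was 1.3 to 1.49. In L12YT-ECKO against L12-ECKO the difference was -1.34 both among libraries with displaced rows and among those without, and was not called under any alternative or in any fit that leaves out 1 library (lowest adjusted p = 0.0501).

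**Figure D3:**
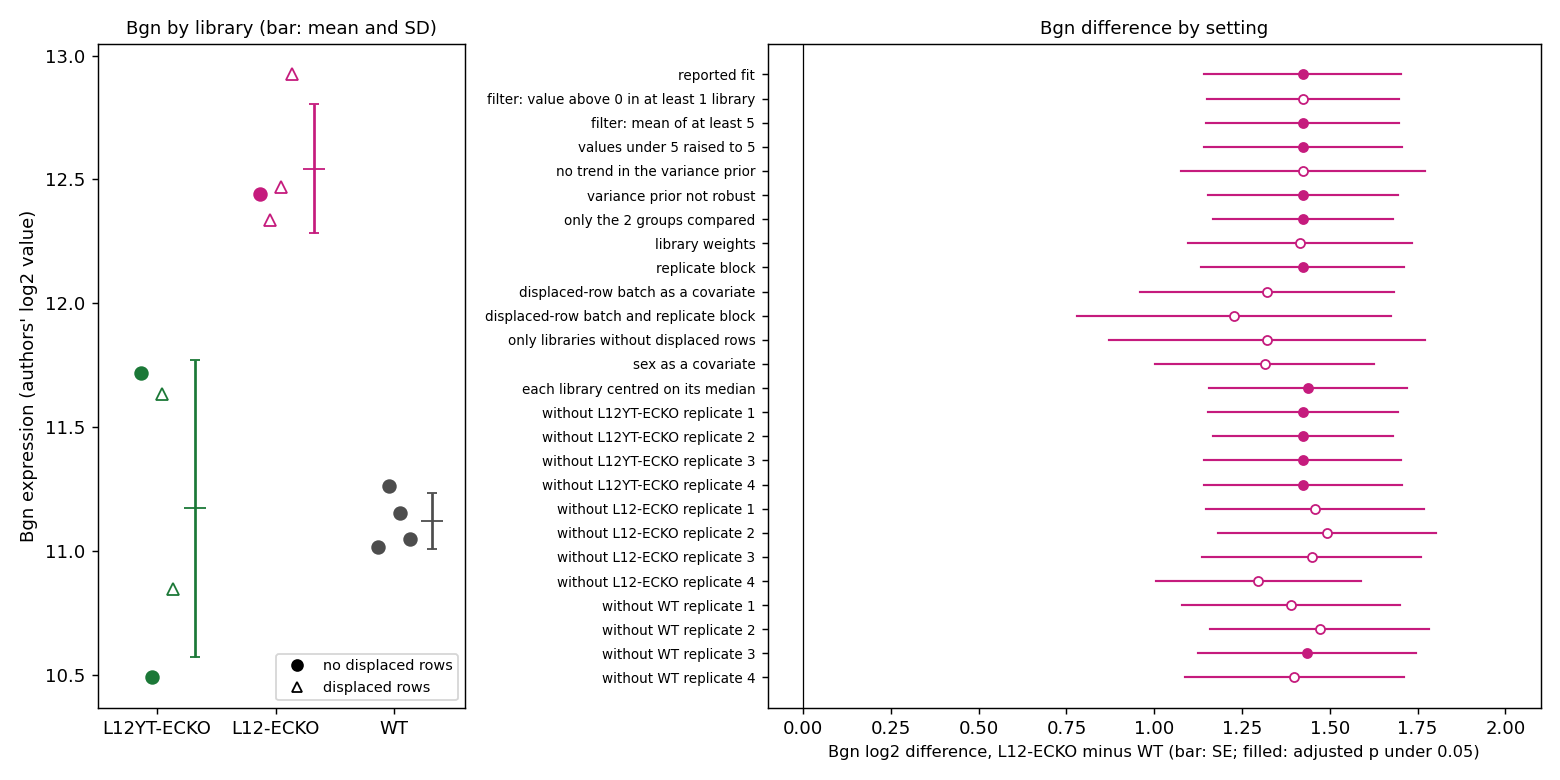
Left, Bgn expression (authors' log2 value, vertical axis) by library in L12YT-ECKO, L12-ECKO and WT, with the mean and SD beside the symbols and triangles for libraries with displaced rows; the 4 L12-ECKO values lie above the other 8. Right, the log2 difference of L12-ECKO minus WT (horizontal axis, bar SE) in the reported fit, under 13 alternatives on the log2 scale and without each library; filled symbols are called, and all differences lie between 1.23 and 1.49.

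The other glycoproteins and proteoglycans were not called. Eln, the elastin of vessel walls and alveolar septa, read 14.82, 13.87, 15.00 and 14.69 in L12YT-ECKO, 14.17, 15.05, 15.00 and 15.00 in L12-ECKO and 14.45, 14.45, 14.13 and 13.64 in WT. It was 0.64 (SE 0.26) above WT in L12-ECKO (limma adjusted p = 0.332). At a fixed group Eln was 0.65 higher in libraries with displaced rows (SE 0.23, unadjusted p = 0.0115, limma adjusted p = 0.649). With those rows as a term the difference of L12-ECKO from WT was 0.15 (adjusted p = 0.941), and among libraries without them it was -0.0018. Fn1, fibronectin, read 12.36, 12.11, 12.94 and 13.12 in L12YT-ECKO, 13.52, 13.35, 13.08 and 13.49 in L12-ECKO and 13.16, 12.28, 13.50 and 13.05 in WT. Its difference in L12YT-ECKO against L12-ECKO was -0.73 (SE 0.27, adjusted p = 0.665), with an overlap at L12YT-ECKO replicate 4. It was -0.28 among libraries with displaced rows and -1.29 among those without. The other members of this class had lower means: Tgfbi read 4.46 to 9.68 over the 12 libraries, Tnc, tenascin C, 0 to 7.29, and Dcn, decorin, 0 to 8.61.

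Serpinh1 encodes the chaperone that collagen needs to fold in the endoplasmic reticulum, and it was the highest member after Sparc. It read 14.40, 15.05, 15.31 and 15.56 in L12YT-ECKO, 14.86, 15.74, 15.56 and 14.44 in L12-ECKO and 15.05, 15.05, 15.31 and 15.31 in WT, and the groups overlapped. Adamts1, a secreted protease that cuts proteoglycans, read 11.38, 11.38, 10.80 and 11.33 in L12YT-ECKO, 10.49, 10.61, 11.03 and 10.65 in L12-ECKO and 10.15, 11.05, 10.90 and 10.72 in WT. 3 of its 4 L12YT-ECKO values lay above all others, and the difference from WT was 0.52 (SE 0.28, limma adjusted p = 0.811).

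The lysyl oxidases cross-link collagen and elastin. Loxl2 read 9.44, 8.84, 8.81 and 9.07 in L12YT-ECKO, 8.78, 8.21, 5.21 and 7.31 in L12-ECKO and 8.29, 7.74, 9.35 and 8.73 in WT. All L12YT-ECKO values lay above all L12-ECKO values, by 1.66 on average (SE 0.62, limma adjusted p = 0.672), and both overlapped WT. The gap differed between library kinds: it was 2.03 among libraries with displaced rows and 0.36 among those without. Lox spread widely, with 7.38 to 9.75 in L12YT-ECKO, 6.31 to 8.77 in L12-ECKO and 4.32 to 10.60 in WT.

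Among the other collagens, 13 were members and 9 were tested, and 2 of these 9, Col6a3 and Col14a1, were above 0 in all libraries. Col6a3, a chain of the collagen VI that forms beaded filaments next to basement membranes, read 9.29, 9.21, 6.74 and 7.22 in L12YT-ECKO, 9.45, 9.0, 8.52 and 7.91 in L12-ECKO and 9.10, 9.02, 9.98 and 8.92 in WT. The L12YT-ECKO libraries with displaced rows held the lowest values, and at a fixed group Col6a3 was 1.71 lower in such libraries (SE 0.46, unadjusted p = 0.00168, limma adjusted p = 0.384). Its difference of L12YT-ECKO from WT was -1.14 (SE 0.56, adjusted p = 0.80) in the fit over all libraries and -0.01 among libraries without displaced rows. Col6a2 was at 0 in 1 L12YT-ECKO and 2 L12-ECKO libraries and in no WT library, where it read 5.52 to 7.03.

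Col14a1, a collagen that decorates fibrils, read 7.87, 7.22, 7.45 and 7.85 in L12YT-ECKO, 2.80, 7.18, 7.45 and 8.44 in L12-ECKO and 8.74, 9.41, 7.26 and 7.41 in WT. L12-ECKO replicate 1 stood far below the rest, and the difference from WT of -1.74 (SE 0.94, limma adjusted p = 0.459) was -0.51 without it and -5.41 among libraries without displaced rows (adjusted p = 0.0744). Col17a1, a transmembrane collagen of epithelial hemidesmosomes, had the lowest p of the members not called in L12-ECKO against WT. It read 0, 6.18, 1.03 and 3.38 in L12YT-ECKO, 0, 0, 0 and 5.03 in L12-ECKO and 7.27, 6.56, 6.63 and 5.35 in WT. All L12-ECKO values lay below all WT values (limma adjusted p = 0.21), and the L12YT-ECKO values overlapped WT at replicate 2 (adjusted p = 0.77). The summed epithelial markers read 11.36 to 13.43 in L12YT-ECKO, 11.06 to 12.39 in L12-ECKO and 11.48 to 13.09 in WT, and their part in the Col17a1 values was not tested. Col13a1, a transmembrane collagen, ranged from 0 to 9.21 over the 12 libraries.

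The remaining laminin and collagen IV chains, which belong to basement membranes of epithelium, kidney or muscle, were near the detection limit. Lama1 read 7.78, 0, 0 and 5.02 in L12YT-ECKO, 8.01, 6.98, 0 and 2.87 in L12-ECKO and 0, 5.80, 6.81 and 5.11 in WT. Lamc3 read 6.98, 2.55, 0.31 and 4.11 in L12YT-ECKO, 0, 4.66, 0 and 2.69 in L12-ECKO and 5.09, 0, 4.31 and 5.59 in WT. Neither showed an order of the groups. Lamb3 was above 0 in 2 of 4 L12YT-ECKO, 2 of 4 L12-ECKO and 1 of 4 WT libraries. Col4a4, the 1 tested chain of the 3 further collagen IV members, read 6.10, 7.01, 0.65 and 0.86 in L12YT-ECKO, 5.28, 2.92, 0 and 3.34 in L12-ECKO and 8.44, 0, 6.43 and 5.79 in WT. Its low values fell mostly in libraries with displaced rows, which were 4.68 lower at a fixed group (unadjusted p = 0.0257, limma adjusted p = 0.80). The untested members included Col5a3, Col8a1, Col7a1, Col9a2, Col19a1, Lama2, Col4a5 and Col4a3.

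Read over the 45 tested members, L12-ECKO differed from WT at an unadjusted p under 0.05 for 8 members, or 17.8%, beside 12.2% of all genes. Groups did not overlap for 3 of 45 members, or 6.67%, beside 6.33% of all genes, and these were Bgn, Col1a1 and Col17a1. In L12YT-ECKO against WT 1 of 45, Col17a1, had an unadjusted p under 0.05, beside 6.24% of all genes, and no member had groups that did not overlap, beside 4.7% of all genes. In L12YT-ECKO against L12-ECKO 7 of 45 had an unadjusted p under 0.05, beside 6.08% of all genes. Bgn, Loxl2, Col27a1 and Sparc, 4 of 45 or 8.89%, had groups that did not overlap, beside 4.38% of all genes. The median difference of the tested members was -0.20 in L12-ECKO against WT, 0.05 in L12YT-ECKO against WT and 0.08 in L12YT-ECKO against L12-ECKO, beside -0.02, 0.08 and 0.09 over all genes. 17, 23 and 25 of the 45 lay above 0 in those comparisons, or 37.8%, 51.1% and 55.6%, beside 49.0%, 54.3% and 55.0% of all genes. These medians turned with the fit: that of L12-ECKO against WT was 0.20 (28 of 45 above 0) with the displaced rows as a term, 0.20 (25 of 45) among libraries without displaced rows and 0.15 (26 of 45) with sex as a term. With library weights the medians were -0.12 in L12YT-ECKO against WT and -0.11 in L12YT-ECKO against L12-ECKO.

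**Figure D4:**
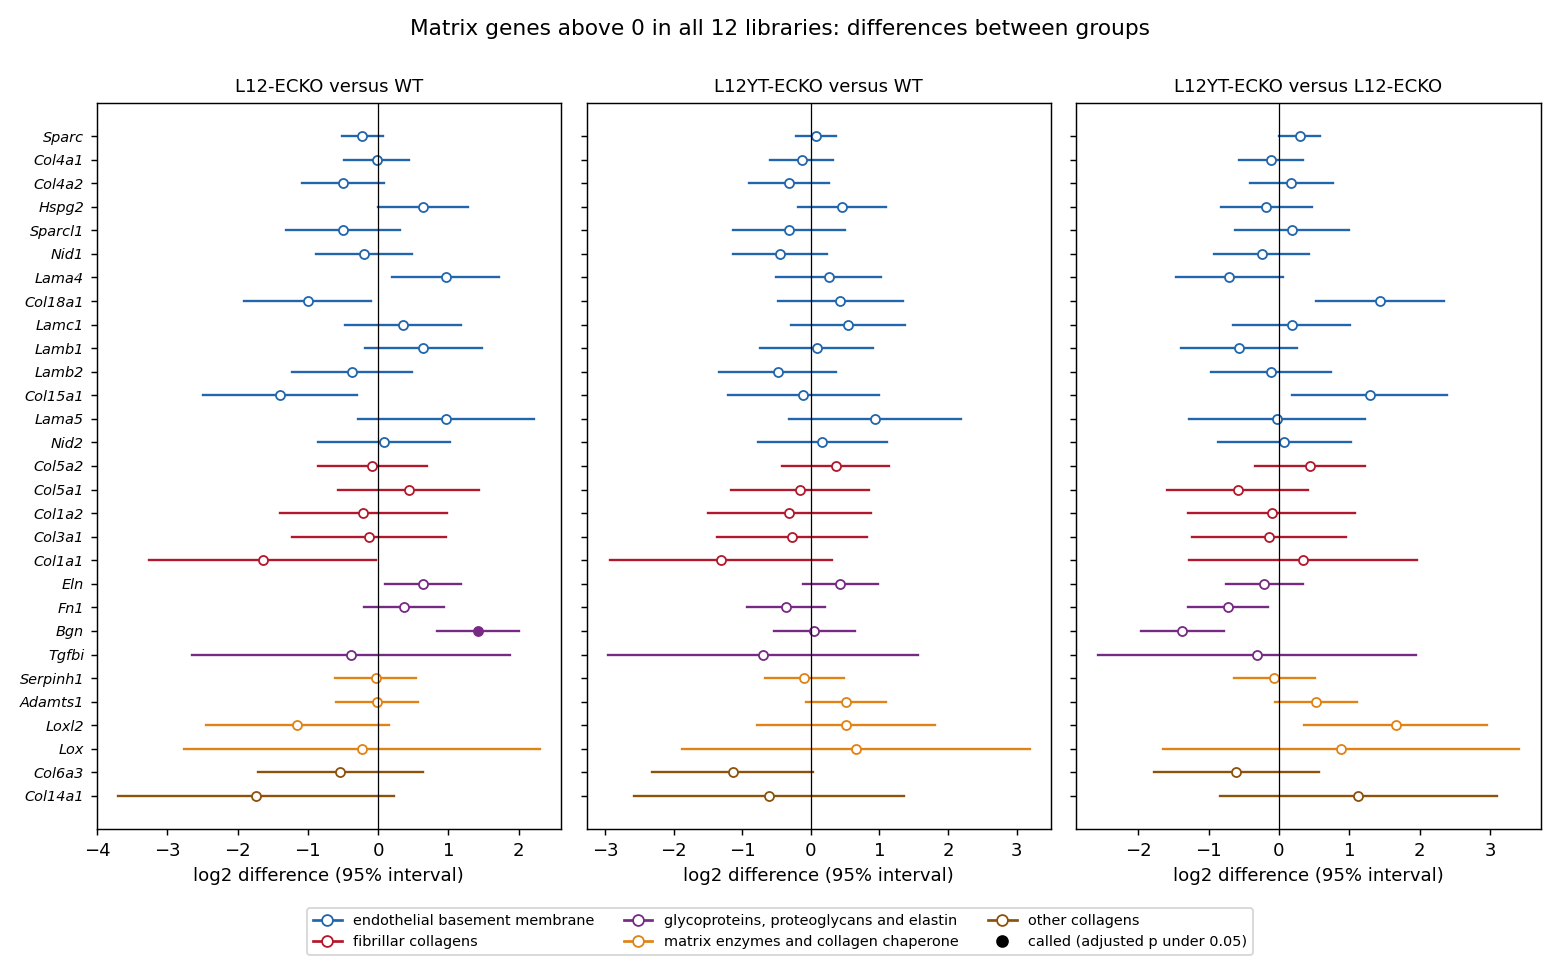
Log2 differences (horizontal axis, bars are 95% intervals of the limma fit) of the 29 members above 0 in all 12 libraries (vertical axis, coloured by class) in L12-ECKO against WT, L12YT-ECKO against WT and L12YT-ECKO against L12-ECKO. The filled symbol, Bgn in L12-ECKO against WT at 1.42, is the 1 called difference, and intervals are narrowest for Sparc and Col4a1 and widest for Lox and Tgfbi.

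Promoter windows of RefSeq, 250 bases before to 50 after an annotated start, were found for 36 of the 54 members, with 40 windows in all. On either strand GGAATG was in 5 of the 40 windows, those of Col18a1, Col3a1, Col6a2, Lamb3 and Nid1, or 12.5%, beside 14.7% of all 32851 windows. TGANTCA was in 1, that of Col6a1, or 2.5%, beside 7.81% of all windows. GGGCGG was in 27, or 67.5%, beside 35.7% of all windows. These are matches of letters and not sites.

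Genes that make, cut or bind matrix were read from the same fit. 15 genes of matrix proteolysis were tested. In L12-ECKO against WT 10 of 15 lay above 0, from -0.84 to 6.18, with a median of 0.65, beside -0.02 over all genes. There 5 of 15 had an unadjusted limma p under 0.05, beside 12.2% of all genes. In L12YT-ECKO against L12-ECKO 7 of 15 lay above 0, and 6 of 15 had an unadjusted p under 0.05, beside 6.08%. Among these genes Adam15, a membrane-anchored metalloprotease, had differences of -0.84 in L12-ECKO against WT (limma adjusted p = 0.0864) and 0.85 in L12YT-ECKO against L12-ECKO (adjusted p = 0.213).

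None of the 17 tested genes of collagen folding and secretion, the 14 matrix receptors and the 23 other vascular and elastic matrix genes was called in any comparison. At an unadjusted p under 0.05, in L12-ECKO against WT, stood 2 of 17, 4 of 14 and 4 of 23, beside 12.2% of all genes. The receptors with the smallest p there were Itga2, a collagen receptor chain, at -2.23 (SE 0.62, limma adjusted p = 0.137), and Itga6, a laminin receptor chain, at -0.78 (SE 0.23, adjusted p = 0.147). 9 of the 14 receptors lay below 0 in L12-ECKO against WT, with a median of -0.78, beside -0.02 over all genes. In L12YT-ECKO against WT 10 of 14 lay below 0, with a median of -0.41, beside 0.08 over all genes. Both comparisons share the WT libraries, and how these medians move with displaced rows or sex as a term was not tested. Itga1, another collagen receptor chain, had the smallest p in L12YT-ECKO against WT, at -1.52 (SE 0.49, adjusted p = 0.633). Ltbp4, which stores TGF-β in elastic fibres, was at -0.95 in L12-ECKO against WT (adjusted p = 0.149) and 1.13 in L12YT-ECKO against L12-ECKO (adjusted p = 0.219).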

How the data were processed

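RNA of sorted lung endothelial cells was measured in 12 libraries, 4 per group, with groups and replicate numbers from the sample titles. Per the labels' protocols, libraries were made with the Lexogen QuantSeq kit from Trizol RNA. Bowtie2, edgeR and the mm10 build were used by the authors, per the submitters' processing notes; which step each served, and its version, is not stated in these notes. The deposited values are log2 values; quantile normalization was inferred here, since the 5000 highest ranks differ by at most 0.168 between libraries. Quantile normalization removes differences in total output. Read depth is unknown and whole reads could not be recovered, so no counting interval is given.

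Of the 24421 rows of a table, 27 are not shared by all tables and were left out, and 34 rows (the displaced block and an exchanged pair, Rn45s and Rn4.5s) were not tested. The displaced rows mark a difference in how 5 libraries' tables were made. At a fixed group, 0 of 11634 genes were called between libraries with and without displaced rows. Genes with at least 1 CPM, computed from 2 raised to the value over the library's total, in at least 4 libraries were tested. limma 3.58.1 in R 4.3.3 was fitted to group means of all 12 libraries with a trended, robust variance prior, 9 residual degrees of freedom (prior: median 10.1), and p-values were adjusted over all genes tested by Benjamini and Hochberg. The procedure was tested on simulated data. All 54 members were located in the GENCODE M21 annotation of mm10. Replicate numbers were not used as a block. Members and lists were chosen with earlier results of these data known. Named members were those called, the 4 highest tested of each class and the 6 with the smallest p in each comparison; further basement membrane and stromal members are given by level only and were added after their values were seen. Context genes were chosen by the smallest p, and some items are not reported here. Alternatives covered filters, scale, variance prior, library weights, sex read from sex-linked transcripts, displaced rows, the replicate block and leaving out each library.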

Additional observations from a re-analysis of the deposited data

Results flagged for a closer look

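In 20 of 150 groups of 4 libraries (50 genes, 3 groups), 1 library passed Dixon's 95% limit. That limit is on its distance from the nearest of the other 3, relative to the group's range. Chance passes it in about 1 in 20 groups of continuous normal values. Some flagged groups hold tied values or listed zeros, so the 20 cannot be set against that share. Each value is the authors' log2 value.

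In L12YT-ECKO, Adamts1 was 10.799 in replicate 3, against 11.333 to 11.38 in the others. Col4a1 was 14.128 in L12YT-ECKO replicate 4, against 13.826 to 13.856. Lamb3 was 7.032 in L12YT-ECKO replicate 1, against at most 1.162. Sparc was 16.183 in L12YT-ECKO replicate 1, with 16.015 in the other three. Tnc was 1.856 in L12YT-ECKO replicate 3, against 6.647 to 7.243. Lats1 was 0 in L12YT-ECKO replicate 2, against 7.111 to 7.896, and Yap1 was 6.694 in replicate 3, against 7.96 to 8.204.

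In L12-ECKO, Col16a1 was 0 in replicate 3, against 5.327 to 5.566 in the others. Col17a1 was 5.034 and Col27a1 was 2.336 in L12-ECKO replicate 4, and both were at 0 in the other three. Col1a2 was 8.783 in L12-ECKO replicate 3, against 8.008 to 8.026. Eln was 14.166 in L12-ECKO replicate 1, against 15.003 to 15.051. Wwtr1 was 10.112 in L12-ECKO replicate 4, against 11.491 to 11.565.

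In WT, Col4a1 was 13.684 in replicate 4, against 14.146 to 14.206 in the others. Col5a2 was 8.71 in WT replicate 4, against 9.585 to 9.682, and Tnc was 0 there, against 6.873 to 7.285. Col6a3 was 9.979 in WT replicate 3, against 8.924 to 9.1, and Col11a1 was 5.842 there, with 0 in the other three. Col27a1 was 0 in WT replicate 2, against 6.279 to 7.326, and Lamb3 was 6.04 there, with 0 in the other three.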

How the results depend on the processing

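The number of genes called in L12-ECKO against WT, 56, was 21 when all genes above 0 in any library were tested, 27 on log2(value + 1), 7 without a trend in the variance prior, 30 with only both groups fitted, 24 with library weights, 15 with displaced rows as a term, 5 with displaced rows and the replicate block, 15 with sex as a term and 15 to 80 without 1 library. The number of members called there, 1, was 0 under each of those but the fit of both groups, 0 in the 7 libraries without displaced rows, and 0 to 1 without 1 library. In L12YT-ECKO against WT the 1 gene called was 0 without a trend and 0 with displaced rows and block, and 1 to 3 without 1 library. In L12YT-ECKO against L12-ECKO the 8 genes called were 4 on log2(value + 1), 3 without a trend, 5 with only both groups, 21 with weights, 14 in libraries without displaced rows, 0 in those with them, 5 with sex and 4 to 9 without 1 library. The basement membrane median of L12-ECKO against WT moved to 0.60 in the 7 libraries without displaced rows, and the fibrillar median to 0.27 with displaced rows and block. In L12YT-ECKO against L12-ECKO the basement membrane median was -0.73 in libraries without displaced rows, 0.22 in those with them, -0.13 with sex and -0.084 to 0.20 without 1 library; the fibrillar median was 0.86, -0.67 and -0.19 to 0.60 for the first, second and last of these. The cause of these shifts was not tested. Of the 31 named members 18, 17 and 17 changed sign somewhere in L12-ECKO against WT, L12YT-ECKO against WT and L12YT-ECKO against L12-ECKO; none of those was called.

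Libraries with the same replicate number did not deviate together (12 correlations, -0.05 to 0.06), so the numbers give no pairing. With the replicate block 43, 1 and 6 genes and 1, 0 and 0 members were called in those comparisons. Unknown depth limits members near 0.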
